A study of Mus musculus with 12 samples.

Results

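The genes described here were *Rtl8a*, *Rtl8b*, *Rtl8c*, *Ldoc1* and *Zfp36l3* on the X chromosome, and the autosomal genes *Peg10* and *Rtl1*, 7 of the 24627 genes counted. They were found by symbol in each of the 12 libraries, and all 7 passed the filter of at least 1 CPM (the count scaled to sequencing depth) in at least 6 libraries, as 13191 genes did. The group was put together with the levels of its X-linked genes with and without DOX in *Xist* FL and *Xist* ΔB+C already known, in particular the low *Rtl8c* and *Zfp36l3* levels with DOX. The DOX responses of the members in those 2 lines are therefore given as a description without a test, and tests were kept for the other comparisons. Of these, the response of *Xist* ΔA is not a contrast on which the choice drew. Earlier results of these data were known when the members were chosen, so this response is not taken as independent of the choice either. The comparisons between lines without DOX share the noDOX libraries of *Xist* FL and *Xist* ΔB+C with the choice and are not independent of it.

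The libraries came from J1 cells, a mouse embryonic stem (ES) cell line with 1 X chromosome and 1 Y chromosome, in which the endogenous *Xist* gene is driven by a promoter that doxycycline (DOX) switches on (*Xist*-TetOP). All cells were differentiated for 2 days by withdrawal of LIF, with 1.5 µg/ml DOX or without it (noDOX). The *Xist* FL line makes the full-length RNA, the *Xist* ΔA line, made earlier, lacks the A repeat, and the *Xist* ΔB+C line lacks the B and C repeats after CRISPR/Cas9 deletion in the *Xist*-TetOP cells and isolation of single colonies. Each of the 6 groups had 2 replicate libraries of total RNA. *Xist* ΔB+C cells were expanded from single colonies and *Xist* ΔA is a line of its own, so the effect of a deletion and differences between clones cannot be told apart. The single X chromosome means that no other X can supply a silenced gene's RNA. Not every cell of a DOX culture forms an *Xist* domain. The paper counted the cells with a domain by RNA FISH for each DOX library. Their share was lowest for *Xist* FL and highest for *Xist* ΔB+C. The levels given here were not adjusted for that share. Fewer cells with a gene on and less RNA per cell therefore cannot be told apart in these bulk libraries.

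*Xist* RNA coats the X chromosome from which it is made and silences most of its genes. The A repeat is needed for that silencing, and the B and C repeats are needed to bring Polycomb complexes to the chromosome. *Rtl8a*, *Rtl8b*, *Rtl8c*, *Ldoc1*, *Peg10* and *Rtl1* descend from an ancient retrotransposon of the sushi-ichi type, and each holds sequence from its Gag part. Mammals took these sequences over as genes of their own. *Peg10* and *Rtl1* are expressed from the paternal allele and are needed for a working placenta, and *Ldoc1* acts in its endocrine cells. *Zfp36l3* has a different origin. It is a rodent gene of the tristetraprolin family, RNA-binding proteins that recognise AU-rich elements and bring in the CCR4-NOT deadenylase, and it is known from the placenta and yolk sac.

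Library totals lay between 31337490 and 41240470 counts. *Xist* itself was at 2.44 to 8.38 CPM in the 6 noDOX libraries and at 557 to 1830 CPM in the 6 DOX libraries. Each library was thus low or high in *Xist* as its label calls for, but the lines differed. With DOX, *Xist* was at 869 and 906 CPM in *Xist* FL and at 714 and 557 CPM in *Xist* ΔA. The *Xist* ΔB+C DOX libraries had 1830 and 1170 CPM. Without DOX, the *Xist* ΔA libraries, at 6.41 and 8.38 CPM, were above all others. A link of these differences to the levels of the members was not tested. For replicate 2 of *Xist* ΔB+C DOX a low-input preparation started from only 100 ng RNA, against 1000 ng for the other libraries. The summed level of 8 ES cell markers was 2969 to 4153 CPM, and *Pou5f1*, the defining transcription factor of pluripotency, was at 1148 to 1804 CPM. The study calls the replicates biological duplicates, and the tests measure the spread between these libraries.

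The X-linked Gag genes and *Zfp36l3* sit mostly in a single stretch of the chromosome. By RefSeq (GRCm38, the same build as mm10), *Rtl8c* lies at chrX:53607922-53609135 on the plus strand, *Rtl8a* at chrX:53642488-53643763 on the minus strand, *Rtl8b* at chrX:53669165-53670437 on the minus strand and *Zfp36l3* at chrX:53772686-53776394 on the minus strand. These 4 genes span 168 kb in all. *Ldoc1*, at chrX:61709611-61710950 on the plus strand, is 7.93 Mb further on. In GENCODE vM21 the models of these 5 genes have 1 exon each. *Peg10* is at chr6:4747306-4760517 on the plus strand, with at most 3 exons in a GENCODE transcript, and *Rtl1* at chr12:109564900-109604418 on the minus strand, with at most 2.

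How far the reads can tell the copies apart decides what their counts mean, so the start of the coding sequence is shown here. *Rtl8a* and *Rtl8b* have the same 339 coding bases. *Rtl8c* has 336 coding bases and matches them at 276 of 333 aligned positions (82.9%). Capitals mark the bases of the first 150 at which the aligned *Rtl8a* and *Rtl8c* sequences (GENCODE vM21 transcripts, GRCm38) differ or at which the other has a gap.
Rtl8a and Rtl8b: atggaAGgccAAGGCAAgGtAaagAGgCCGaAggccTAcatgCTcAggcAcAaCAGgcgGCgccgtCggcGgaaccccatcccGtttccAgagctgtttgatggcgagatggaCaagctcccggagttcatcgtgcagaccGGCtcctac
Rtl8c: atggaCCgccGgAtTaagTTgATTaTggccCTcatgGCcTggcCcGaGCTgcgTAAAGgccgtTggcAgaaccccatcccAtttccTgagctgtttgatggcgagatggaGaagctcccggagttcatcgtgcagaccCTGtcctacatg
The full transcript models of *Rtl8a* and *Rtl8b* were 99.6% identical over their aligned bases, with a longest identical run of 770 bases, and 60.3% of the 150-base windows of *Rtl8b* occurred unchanged in *Rtl8a*. No 150-base window of the *Rtl8c* coding sequence occurred in *Rtl8a* or *Rtl8b*, where the longest shared run was 41 bases. The reads were 150 bases long and each was placed at 1 position only. Counts of *Rtl8a* against *Rtl8b* are therefore uncertain, *Rtl8c* can be told from both over its coding part, and the sum of the 3 genes is given beside them. *Ldoc1* was only 66.3% identical to the coding sequence of *Rtl8a*.

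The windows around the start sites were compared as well, as a description of the sequences only. A link to the levels with DOX was not tested. Each window runs from 250 bases before to 50 bases after the RefSeq start (GRCm38.p6). Capitals mark the longest run shared by *Rtl8a* and *Rtl8b* (27 bases, after the start) and the longest run shared by *Rtl8b* and *Rtl8c* (44 bases, before the start).
Rtl8a, minus strand of chrX:53643714-53644013: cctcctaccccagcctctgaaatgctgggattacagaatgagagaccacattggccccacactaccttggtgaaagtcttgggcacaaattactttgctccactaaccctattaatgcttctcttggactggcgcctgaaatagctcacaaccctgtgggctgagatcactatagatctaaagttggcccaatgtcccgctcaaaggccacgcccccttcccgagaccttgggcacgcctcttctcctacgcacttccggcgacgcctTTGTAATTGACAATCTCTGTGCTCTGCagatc
Rtl8b, minus strand of chrX:53670388-53670687: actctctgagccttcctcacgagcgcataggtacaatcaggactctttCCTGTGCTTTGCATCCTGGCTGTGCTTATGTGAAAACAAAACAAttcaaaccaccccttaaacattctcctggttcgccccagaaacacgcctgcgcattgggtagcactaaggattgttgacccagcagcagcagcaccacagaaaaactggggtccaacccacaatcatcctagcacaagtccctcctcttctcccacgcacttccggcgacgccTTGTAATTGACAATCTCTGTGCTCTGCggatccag
Rtl8c, plus strand of chrX:53607672-53607971: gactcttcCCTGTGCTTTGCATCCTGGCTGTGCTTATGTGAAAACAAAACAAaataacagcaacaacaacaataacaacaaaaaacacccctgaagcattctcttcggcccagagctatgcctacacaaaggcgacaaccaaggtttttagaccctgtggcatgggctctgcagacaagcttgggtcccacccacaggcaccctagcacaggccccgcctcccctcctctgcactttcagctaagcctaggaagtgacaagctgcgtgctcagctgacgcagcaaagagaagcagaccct
Over the aligned bases, the *Rtl8b* window was 75.8% identical to that of *Rtl8c* and 69.5% identical to that of *Rtl8a*, even though *Rtl8a* and *Rtl8b* have the same coding bases. CG dinucleotides numbered 9 in the *Rtl8a* window, 10 in *Rtl8b*, 5 in *Rtl8c*, 9 in *Zfp36l3* and 15 in *Ldoc1*, where the median of 32851 mouse windows is 7. Of 6 motifs searched on both strands, CCAAT (in 37.4% of all windows) occurred 2 times for *Rtl8a* and 1 time for *Rtl8b*, TGCGCA (7.76%) 1 time for *Rtl8b*, where the reverse complement of CCAAT overlaps it, and ATGGCG (8.93%) 1 time for *Ldoc1*. TATAAA (13.6%), GGGCGG (35.7%) and CACGTG (7.15%) were in none of the 5 windows. Windows of *Peg10* and *Rtl1* were not used here.

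Levels differed widely between the members. Per kb of transcript, in *Xist* FL noDOX, *Peg10* stood at 56.9 ± 37.8 CPM per kb (SD, n = 2), *Rtl8b* at 7.91 ± 0.105, *Rtl8a* at 6.5 ± 0.363 and *Rtl8c* at 4.46 ± 1.27. *Zfp36l3* followed at 1.79 ± 0.623 CPM per kb, *Ldoc1* at 1.31 ± 0.0763 and *Rtl1* at 0.157 ± 0.0535. *Peg10* was thus by far the most abundant, also per length, and *Rtl1* the least. *Zfp36l3* and *Ldoc1* were neighbours in this order, and their difference was smaller than the SD of *Zfp36l3*. The lengths were those of the RefSeq span for the single-exon genes and the joined GENCODE exons for *Peg10* and *Rtl1*. The order rests on that choice, since the GENCODE model of *Rtl8c* has 401 bases and the RefSeq model 1214. With the GENCODE length, an alternative chosen after the data were seen, *Rtl8c* stood at 13.5 ± 3.84 CPM per kb, above *Rtl8b* at 8.17 ± 0.108. Counts per library ranged from 6420 to 27153 for *Peg10*, from 12 to 417 for the *Rtl8* genes, from 26 to 308 for *Zfp36l3*, from 33 to 111 for *Ldoc1* and from 30 to 64 for *Rtl1*, so counting error alone is sizeable for the last 2.

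*Rtl8c* had the largest difference with DOX in *Xist* FL. Without DOX it was at 6.51 and 4.33 CPM in the 2 libraries, against 0.903 and 0.313 CPM in the DOX libraries. The DOX values rest on 31 and 12 counts, and the exact 95% Poisson interval of the lower value is 0.162 to 0.547 CPM (such intervals cover counting error only). The log2 (fold change) was −3.17 ± 0.62 (SE), the lowest of the 464 X-linked genes tested, and −4.09 without the *Xist* FL DOX replicate 1 library. The *Xist* ΔB+C libraries had *Rtl8c* at 4.71 and 3.26 CPM without DOX and 1.71 and 0.536 CPM with DOX. Both DOX libraries were again below both noDOX libraries, with a log2 (fold change) of −1.80 ± 0.58, but they stood apart from each other. The value was −2.89 without the *Xist* ΔB+C DOX replicate 1 library and −1.23 without the low-input replicate 2 library.

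*Rtl8a* and *Rtl8b* were less far apart between conditions. In *Xist* FL, *Rtl8a* was at 7.97 and 8.62 CPM without DOX and 2.94 and 1.96 CPM with DOX (log2 (fold change) −1.76 ± 0.22). *Rtl8b* was at 10.2 and 9.97 CPM without DOX and 3.61 and 1.98 CPM with DOX (−1.85 ± 0.26). Neither gene had overlapping groups. The picture in *Xist* ΔB+C was alike for *Rtl8a*, at 8.55 and 7.05 CPM without DOX and 2.31 and 2.30 CPM with DOX (log2 (fold change) −1.76 ± 0.22). *Rtl8b* was at 7.81 and 7.38 CPM without DOX and 3.39 and 3.53 CPM with DOX (−1.14 ± 0.26). The *Rtl8a* level with DOX was thus 29.5% of that without in both lines, while *Rtl8b* was at 27.7% for *Xist* FL and 45.5% for *Xist* ΔB+C, a split that shared reads make uncertain. The sum of the 3 genes was at 24.6% of its noDOX level in *Xist* FL and at 35.5% in *Xist* ΔB+C. These percentages were not adjusted for the share of cells with an *Xist* domain, which differed between the lines. Whether the remaining levels match the share of cells without a domain was not tested.

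*Zfp36l3*, the tristetraprolin relative next to the *Rtl8* genes, was similarly low with DOX in both lines. It was at 5.02 and 8.29 CPM in *Xist* FL noDOX and 1.19 and 1.36 CPM in *Xist* FL DOX, a log2 (fold change) of −2.38 ± 0.29. The *Xist* ΔB+C line had 6.38 and 5.93 CPM without DOX and 1.18 and 0.820 CPM with DOX, for a log2 (fold change) of −2.61 ± 0.30, the lowest of the 464 X-linked genes in that line. The groups did not overlap in either line, and without the low-input library the *Xist* ΔB+C value was −2.38. *Ldoc1*, the Gag gene outside the cluster, had a smaller difference. It was at 1.68 and 1.83 CPM without DOX and 0.962 and 0.940 CPM with DOX in *Xist* FL (−0.88 ± 0.23), and at 2.44 and 2.76 CPM without DOX and 1.18 and 1.64 CPM with DOX in *Xist* ΔB+C (−0.89 ± 0.22). Its groups did not overlap either.

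**Figure D1:**
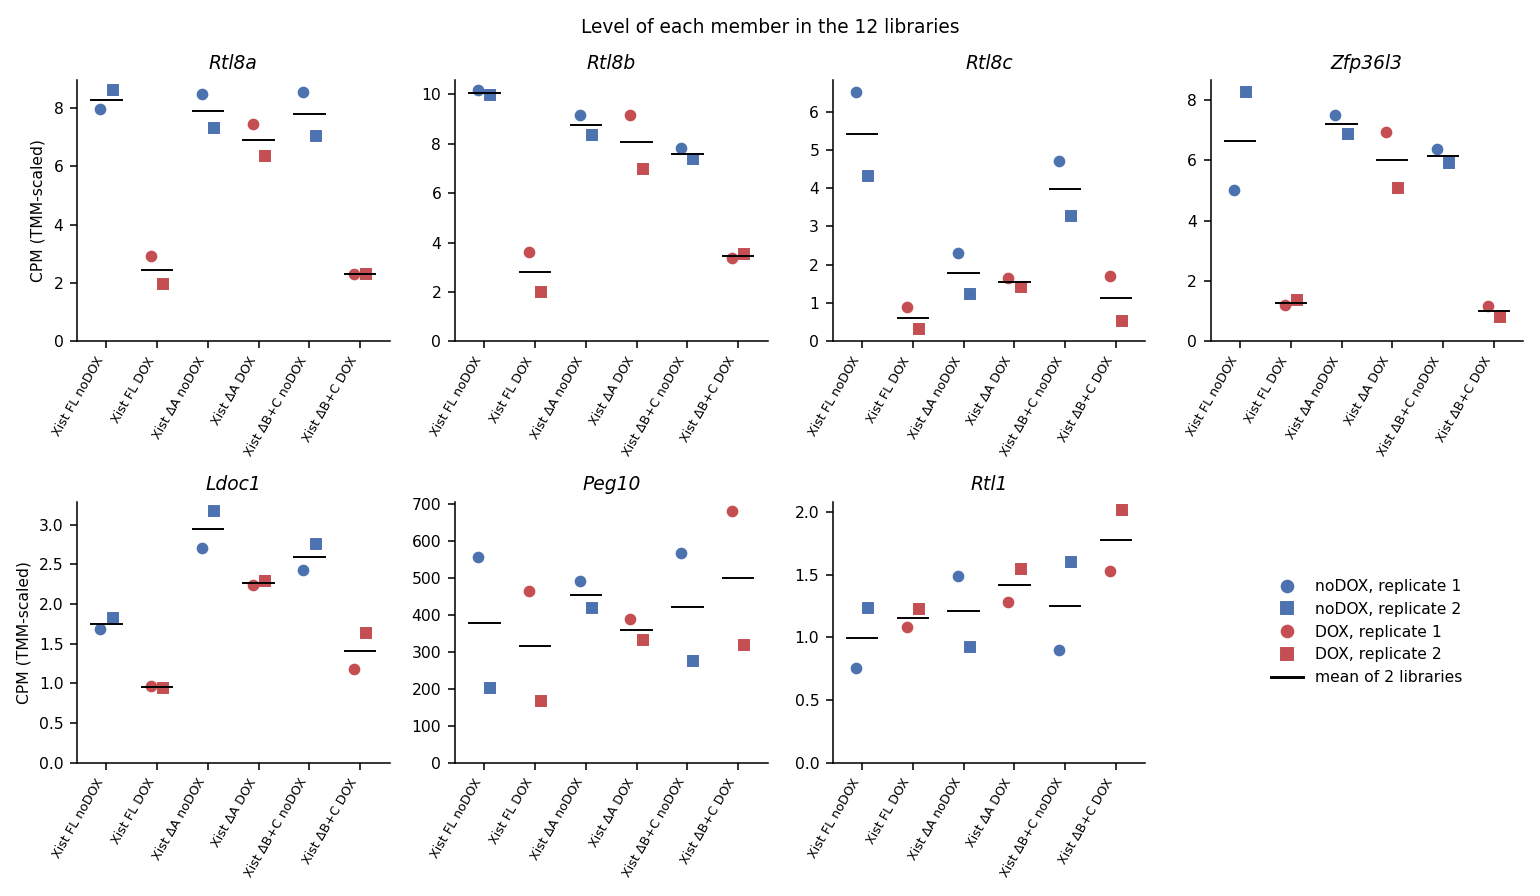
Level of each of the 7 members in the 12 libraries, as CPM scaled with TMM factors (linear vertical axes from 0), by line and treatment. Circles and squares are replicates 1 and 2, blue without DOX and red with DOX, and black lines are means of 2 libraries. In *Xist* FL and *Xist* ΔB+C the red points of the 5 X-linked genes lie below the blue ones, while those of *Peg10* and *Rtl1* overlap with them.

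In both lines the 5 X-linked members had no overlap between DOX and noDOX libraries, and the autosomal *Peg10* and *Rtl1* overlapped. Nothing is read from these counts, since the members were chosen on this contrast. Of all 13191 genes tested, both DOX libraries were below both noDOX libraries for 26.1% in *Xist* FL and for 23.4% in *Xist* ΔB+C, and of the 464 X-linked genes for 88.1% and 81.9%. The median log2 (fold change) of the 5 X-linked members was −1.85 for *Xist* FL and −1.76 for *Xist* ΔB+C, against −0.85 and −0.78 for all X-linked genes tested. Counted from the lowest value among the 464 X-linked genes, *Zfp36l3* was in place 4, *Rtl8b* in place 22, *Rtl8a* in place 27 and *Ldoc1* in place 224 in *Xist* FL. In *Xist* ΔB+C, *Rtl8c* was in place 16, *Rtl8a* in place 20, *Rtl8b* in place 104 and *Ldoc1* in place 180. *Ldoc1* lay near the middle of the X-linked genes in both lines. The medians and places describe values known when the members were chosen, so nothing is read from them either.

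**Figure D2:**
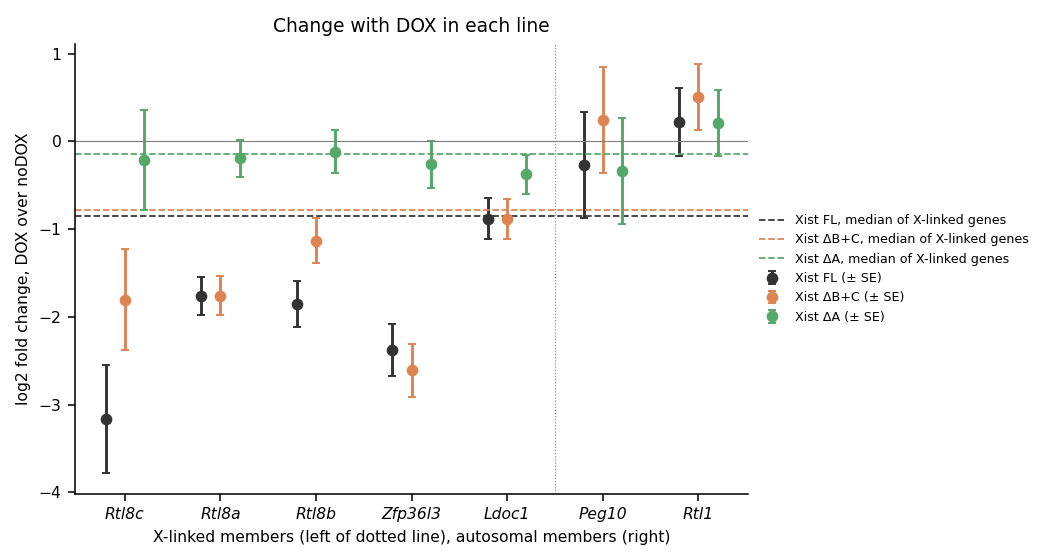
Log2 (fold change) of each member, DOX over noDOX, in *Xist* FL (black), *Xist* ΔB+C (orange) and *Xist* ΔA (green), with bars of ± 1 SE from the fit to all 12 libraries. Dashed lines are the medians of the 464 X-linked genes tested in each line (−0.85, −0.78 and −0.14), and the dotted line parts X-linked from autosomal members. *Rtl8c*, *Rtl8a*, *Rtl8b* and *Zfp36l3* lie below the dashed lines in *Xist* FL and *Xist* ΔB+C, *Ldoc1* lies close to them, and all 5 lie between −0.38 and −0.12 in *Xist* ΔA.

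The *Xist* ΔA line shows the members' levels when the induced RNA lacks the A repeat. None of the 7 members was called between DOX and noDOX in *Xist* ΔA (edgeR's quasi-likelihood test with Benjamini-Hochberg adjustment, 0 of 7 also at an unadjusted p under 0.05, 0 of 7 with DESeq2 and 0 of 7 with a replicate block). Few genes were called at all, 0.00758% of those tested, or 0.0227% with the block. *Rtl8a* was at 8.49 and 7.32 CPM without DOX and 7.44 and 6.37 CPM with DOX, and *Rtl8b* at 9.15 and 8.34 CPM without and 9.15 and 6.96 CPM with DOX. *Rtl8c* was at 2.32 and 1.23 CPM without DOX and 1.66 and 1.42 CPM with DOX. *Zfp36l3* was at 7.52 and 6.88 CPM without DOX and 6.94 and 5.07 CPM with DOX. These 4 genes overlapped between the groups. Within same-numbered libraries, *Rtl8a* with DOX was at 87.6% and 87.1% of its noDOX level, *Zfp36l3* at 92.3% and 73.7% and the sum of the *Rtl8* genes at 91.4% and 87.4%, so both pairs were lower for these, while the *Rtl8c* pairs went in opposite directions. The 4 genes, in the order given, had log2 (fold changes) of −0.19 ± 0.21, −0.12 ± 0.25, −0.21 ± 0.57 and −0.26 ± 0.27, and the *Rtl8* sum had −0.16 ± 0.24.

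*Ldoc1* was at 2.71 and 3.18 CPM without DOX and 2.24 and 2.29 CPM with DOX in *Xist* ΔA, so its DOX libraries were both lower, by a log2 (fold change) of −0.38 ± 0.22. Of all genes tested 12.9%, and of the X-linked ones 36.2%, had both DOX libraries below both noDOX libraries in this line. Among the members, *Peg10* was the other such gene, and *Rtl1* overlapped. The median of the 5 X-linked members was −0.21, against −0.14 for all X-linked genes tested. It lay between −0.33 and −0.08 with 1 of the libraries left out.

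Levels before induction were then compared between the lines. None of the 7 members was called between *Xist* ΔA and *Xist* FL without DOX by the quasi-likelihood test, in a comparison that called 9.85% of all genes tested. At an unadjusted p under 0.05 there were 2, DESeq2 called 1, and a fit with the replicate number as a block called 2, where it called 33.4% of all genes. The 2 genes were *Rtl8c* and *Ldoc1*, in opposite directions. *Rtl8c* was lower in *Xist* ΔA (2.32 and 1.23 CPM) than in *Xist* FL (6.51 and 4.33 CPM), at 33.0% of the level. Its log2 (fold change) was −1.60 ± 0.56, with an adjusted p of 0.106 by the quasi-likelihood test, 0.0463 by DESeq2 and 0.00116 with the block, and from 0.00116 to 0.423 over all alternatives. *Ldoc1* was higher in *Xist* ΔA (2.71 and 3.18 CPM) than in *Xist* FL (1.68 and 1.83 CPM). Its log2 (fold change) was 0.75 ± 0.22, with an adjusted p of 0.0649 by the quasi-likelihood test, 0.0141 with the block, and from 0.0141 to 0.304 over all alternatives. *Rtl8b* was also lower in both *Xist* ΔA libraries, with an adjusted p of 0.646 by the quasi-likelihood test, and *Rtl8a* and *Zfp36l3* overlapped between the lines. How many of all genes separate in this way between lines was not counted, so nothing is read from the *Rtl8b* separation.

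Few genes of any kind differed between *Xist* ΔB+C and *Xist* FL before induction. None of the 7 members was called between these lines without DOX (quasi-likelihood test, with 1 at an unadjusted p under 0.05, and 0 with DESeq2), and 0.0227% of all genes tested were. With the block 0 members and 0.986% of all genes were called. *Ldoc1* was at 2.44 and 2.76 CPM in *Xist* ΔB+C, above both *Xist* FL libraries, with a log2 (fold change) of 0.57 ± 0.22 (adjusted p of 0.773 by the quasi-likelihood test). *Rtl8b*, at 7.81 and 7.38 CPM, was below both *Xist* FL libraries (10.2 and 9.97 CPM), with −0.41 ± 0.25 (0.938). The share of all genes that separate in this way between lines was not counted, so nothing is read from these separations. Between *Xist* ΔB+C and *Xist* ΔA, 0 of 7 members (0 at an unadjusted p under 0.05, 0 with DESeq2) and 6.69% of all genes were called, and with the block 1 member and 28.1% of all genes. That member was *Rtl8c*, at 4.71 and 3.26 CPM in *Xist* ΔB+C against 2.32 and 1.23 CPM in *Xist* ΔA. Its log2 (fold change) was 1.16 ± 0.56, with an adjusted p of 0.255 by the quasi-likelihood test and 0.00914 with the block, the lowest of its alternatives, which reached 0.643.

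The share of *Rtl8c* in the counts of the 3 *Rtl8* genes describes its level beside its relatives, and it does not depend on the library scaling. The low *Rtl8c* level with DOX in *Xist* FL and *Xist* ΔB+C was known when the members were chosen, so nothing is read from lower shares with DOX there. The *Xist* FL noDOX libraries had shares of 26.4% (23.8% to 29.2%, 95% Wilson interval) and 18.9% (16.3% to 21.7%), and the *Xist* FL DOX libraries 12.1% (8.66% to 16.7%) and 7.36% (4.26% to 12.4%). Shares in *Xist* ΔA were 11.6% (9.60% to 14.0%) and 7.31% (5.42% to 9.80%) for noDOX, and 9.09% (7.21% to 11.4%) and 9.64% (7.31% to 12.6%) for DOX. The *Xist* ΔA noDOX shares were thus close to those of *Xist* FL DOX. The *Xist* ΔB+C noDOX libraries had shares of 22.4% (19.6% to 25.4%) and 18.4% (15.5% to 21.7%), and the DOX libraries 23.1% (18.6% to 28.2%) and 8.42% (5.32% to 13.1%). The 2 DOX libraries of that line differed by more than their counting error, and the lower share was in the low-input library. In 6 of 6 groups *Rtl8c* was higher in the library numbered 1 than in that numbered 2, by 1.17 to 3.18 times, as 21.2% of all genes tested were.

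**Figure D3:**
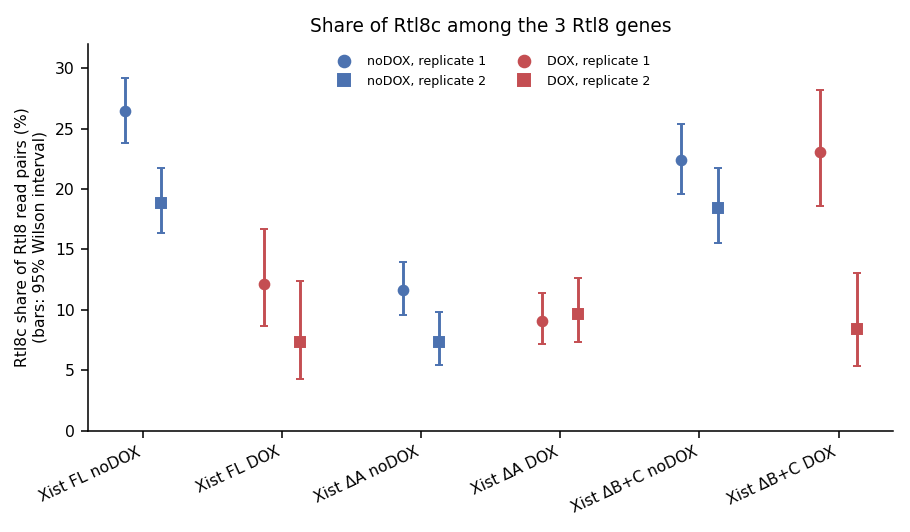
Share of *Rtl8c* in the counts of *Rtl8a*, *Rtl8b* and *Rtl8c* together, in percent, for each of the 12 libraries, with 95% Wilson intervals for counting error. Circles and squares are replicates 1 and 2, blue without DOX and red with DOX. The 2 *Xist* FL noDOX libraries (26.4% and 18.9%) and the 2 *Xist* ΔB+C noDOX libraries (22.4% and 18.4%) lie above all 4 *Xist* ΔA libraries (7.31% to 11.6%), and the 2 *Xist* ΔB+C DOX libraries stand apart from each other.

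*Peg10*, the abundant autosomal relative, differed more between replicates than with DOX in the *Xist* FL and *Xist* ΔB+C lines. The *Xist* ΔA replicates were closer to each other. It was at 558 and 201 CPM in *Xist* FL noDOX and 465 and 168 CPM in *Xist* FL DOX. The *Xist* ΔB+C libraries held 567 and 274 CPM (noDOX) and 681 and 318 CPM (DOX), and those of *Xist* ΔA 491 and 418 CPM (noDOX) and 388 and 331 CPM (DOX). The library numbered 1 was the higher in 6 of 6 groups, by 1.17 to 2.77 times. Within same-numbered libraries, *Peg10* with DOX was at 83.3% of its noDOX level in both *Xist* FL pairs, at 79.0% and 79.1% in the *Xist* ΔA pairs, and at 120% and 116% in the *Xist* ΔB+C pairs. The fitted log2 (fold changes) were −0.26 ± 0.60, −0.34 ± 0.60 and 0.25 ± 0.60. This fit has no block, so its SE include the difference between replicates. The *Xist* FL value was 0.65 without its noDOX replicate 1 library and −1.17 without its DOX replicate 1 library, and the *Xist* ΔB+C value 0.86 and −0.40 likewise. Leaving out such a library breaks a same-numbered pair, so the replicate difference enters these values. They are not read as a change of the DOX response. The 3 comparisons between lines without DOX gave between −0.11 and 0.26, with adjusted p from 0.822 to 1 by the quasi-likelihood test.

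*Sgce*, the paternally expressed gene that starts next to *Peg10* on the other strand, was also higher in the library numbered 1. It was at 10.2 and 5.65 CPM in *Xist* FL noDOX and 11 and 5.30 CPM in *Xist* FL DOX, and the library numbered 1 exceeded the other in 6 of 6 groups, by 1.60 to 2.07 times. The *Xist* ΔB+C libraries held 11.8 and 6.4 CPM (noDOX) and 16.8 and 9.11 CPM (DOX), and those of *Xist* ΔA 8.45 and 5.28 CPM (noDOX) and 7.22 and 4.27 CPM (DOX). *Casd1* and *Ppp1r9a*, further genes of that imprinted region, were higher in the library numbered 1 in 3 of 6 groups each. Of all genes tested, 21.2% were higher in it in all 6 groups. The cause of the replicate difference was not tested.

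**Figure D4:**
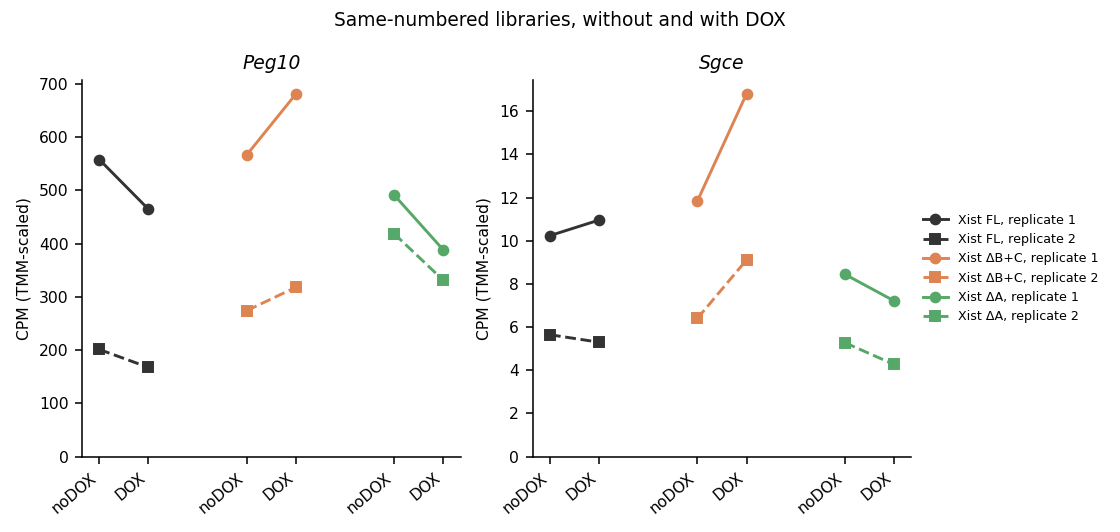
*Peg10* (left) and *Sgce* (right) in CPM on linear axes from 0, with lines joining the noDOX and DOX libraries that carry the same replicate number (solid, circles: replicate 1; dashed, squares: replicate 2) in *Xist* FL (black), *Xist* ΔB+C (orange) and *Xist* ΔA (green). For both genes the solid line lies above the dashed line in all 3 lines, and the 2 *Peg10* lines of a cell line run in the same direction.

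Of 8 genes listed as imprinted neighbours of *Peg10*, 6 were tested. Without DOX, 4 were higher in *Xist* ΔA than in *Xist* FL by the quasi-likelihood test (and 4 with the block), where 9.85% and 33.4% of all genes were called, and none was lower, with a list median of 0.81 against 0.00 over all genes tested. *Pon2*, an esterase of the paraoxonase family, was at 18.5 and 17.3 CPM in *Xist* ΔA and 5.85 and 4.05 CPM in *Xist* FL (log2 (fold change) 1.85 ± 0.33, adjusted p 0.0116 by edgeR). *Pon3*, its paralog, had 1.13 ± 0.29 (adjusted p 0.0421 by edgeR), *Calcr*, the calcitonin receptor, 1.56 ± 0.36 (0.0301) and *Casd1*, a sialic acid acetyltransferase, 0.49 ± 0.11 (0.0232). *Pon2* and *Pon3* were also the 2 called between *Xist* ΔB+C and *Xist* ΔA, both lower in *Xist* ΔB+C, at −1.81 ± 0.33 (adjusted p 0.0177 by edgeR) and −1.36 ± 0.30 (0.0314). With the block 3 of the 6 were lower there, *Calcr* being the other, and 1 was higher, *Sgce*. With DOX 0 of the 6 were called in any line. With the block *Ppp1r9a* was just past the threshold in *Xist* FL, and *Sgce* was higher in *Xist* ΔB+C (adjusted p 0.0146 by edgeR with the block). Without the block their values were −0.45 ± 0.17 (adjusted p 0.280 by edgeR) and 0.51 ± 0.50 (0.648). *Peg10* itself was not called in any of these comparisons.

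*Rtl1* was close to its detection limit. It was at 0.755 and 1.24 CPM in *Xist* FL noDOX and 1.08 and 1.23 CPM in *Xist* FL DOX, and at 1.49 and 0.926 CPM in *Xist* ΔA noDOX and 1.28 and 1.55 CPM in *Xist* ΔA DOX. The *Xist* ΔB+C values were 0.900 and 1.60 CPM (noDOX) and 1.53 and 2.02 CPM (DOX). The groups overlapped in the 3 comparisons of DOX with noDOX and in the 3 between lines without DOX. The log2 (fold changes) with DOX were 0.22 ± 0.39, 0.21 ± 0.38 and 0.50 ± 0.37. The use of strand in the counting is not stated, and a maternal antisense RNA is known at *Rtl1*, so its reads cannot be told apart from those of *Rtl1*.

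Some of the genes around *Rtl1* differed between the lines. Of 6 imprinted neighbours, all 6 were tested, and *Meg3*, *Rian* and *Mirg*, the maternally expressed non-coding RNAs of the region, were the 3 lower in *Xist* ΔA than in *Xist* FL without DOX, none being higher, where 9.85% of all genes were called. *Meg3* was at 89.4 and 79.2 CPM in *Xist* ΔA, 145 and 148 CPM in *Xist* FL and 214 and 174 CPM in *Xist* ΔB+C. Its log2 (fold change) was −0.80 ± 0.13 for *Xist* ΔA against *Xist* FL (adjusted p 0.00673 by edgeR) and 1.21 ± 0.13 for *Xist* ΔB+C against *Xist* ΔA (0.00105). *Rian* was at 75.2 and 56.4 CPM in *Xist* ΔA, 131 and 126 CPM in *Xist* FL and 180 and 150 CPM in *Xist* ΔB+C, with −0.97 ± 0.18 (adjusted p 0.0130 by edgeR) and 1.33 ± 0.18 (0.00411). *Mirg* had −0.77 ± 0.16 (adjusted p 0.0204 by edgeR) and 1.34 ± 0.16 (0.00236). These were again the 3 called between *Xist* ΔB+C and *Xist* ΔA, where 6.69% of all genes were called, and *Dlk1*, *Dio3* and *Begain* were not. With the block, 1 further neighbour was higher in *Xist* ΔA than in *Xist* FL, *Dio3*, a deiodinase, and 2 more differed between *Xist* ΔB+C and *Xist* ΔA, *Dlk1* (a Notch ligand homolog, higher in *Xist* ΔB+C) and *Dio3* (lower). *Rtl1* was not called in any of these comparisons. With DOX 0 of the 6 neighbours were called in any line by the quasi-likelihood test, and 2, *Meg3* (296 and 251 CPM with DOX) and *Rian*, were higher in *Xist* ΔB+C with the block.

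**Figure D5:**
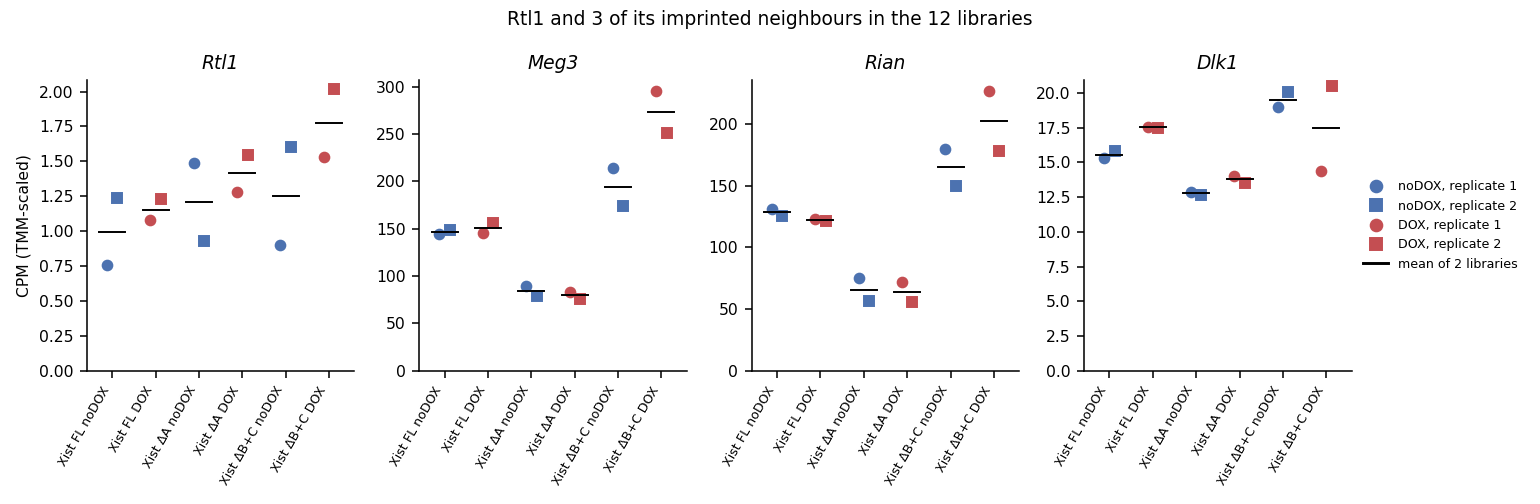
*Rtl1* and its imprinted neighbours *Meg3*, *Rian* and *Dlk1* in CPM (linear axes from 0) in the 12 libraries. Circles and squares are replicates 1 and 2, blue without DOX and red with DOX, and black lines are means of 2 libraries. The 4 *Xist* ΔA libraries of *Meg3* and *Rian* lie below all others. The *Rtl1* groups overlap between DOX and noDOX in each line and between the lines without DOX.

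Few genes near the X-linked cluster could be followed. Of 11 other genes within 500 kb of the *Rtl8* genes and *Zfp36l3*, 2 passed the filter, and no other gene of the count tables lay within 500 kb of *Ldoc1*. *Fam122b*, 338 kb before *Rtl8c*, had log2 (fold changes) with DOX of −1.01 ± 0.22 in *Xist* FL (adjusted p 0.0752 by edgeR, 0.00146 with the block), −0.80 ± 0.22 for *Xist* ΔB+C (0.0900, 0.00360 with the block) and −0.47 ± 0.22 for *Xist* ΔA. *Mospd1*, 237 kb before *Rtl8c*, had −1.29 ± 0.35 (adjusted p 0.151 by edgeR, 0.000255 with the block), −0.78 ± 0.35 (0.276, 0.00366 with the block) and −0.30 ± 0.35. Without DOX, *Fam122b* differed between *Xist* ΔA and *Xist* FL by 0.66 ± 0.22 (adjusted p 0.0883 by edgeR, 0.00414 with the block), and between *Xist* ΔB+C and *Xist* ΔA by −0.45 ± 0.22 (0.254, 0.0279 with the block). *Mospd1* differed between *Xist* ΔA and *Xist* FL by −0.40 ± 0.35 (adjusted p 0.508 by edgeR, 0.0460 with the block). *Xlr*, which starts 0.724 kb from *Zfp36l3*, and *Plac1*, a placental gene, did not pass the filter, with means of 0.857 and 0.202 CPM.

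Other Gag genes of retroviral or retrotransposon origin were looked at by family. Of 6 further sushi-ichi genes, 5 were in the files and 1, *Rtl6* on chromosome 15, was tested. It was higher in *Xist* ΔA (19.1 and 17.7 CPM) than in *Xist* FL (14.0 and 13.5 CPM) without DOX, by a log2 (fold change) of 0.42 ± 0.11 (adjusted p 0.0481 by edgeR). *Rtl5*, on the X chromosome, was below the filter with a mean of 0.391 CPM. It was at 0.512 and 0.674 CPM in *Xist* FL noDOX against 0.321 and 0.0783 CPM in *Xist* FL DOX.

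The PNMA family, whose Gag domain comes from another retroelement, had 8 of 10 genes tested, 4 of them X-linked. With DOX, 2 were lower in *Xist* FL by the quasi-likelihood test, where 1.24% of all genes were called (3 with the block, 14%), and 1 in *Xist* ΔB+C, where 2.98% were (2 with the block, 21.8%), and none was higher. The list medians were −0.81 and −0.35, against −0.01 and 0.00 over all genes tested. The called genes are X-linked, and over the 464 X-linked genes tested the medians were −0.85 and −0.78, with 125 and 159 called lower. *Zcchc18* fell in both, from 9.36 and 8.96 CPM to 3.26 and 3.0 CPM in *Xist* FL (log2 (fold change) −1.55 ± 0.19, adjusted p 0.00956 by edgeR) and from 8.63 and 8.06 CPM to 2.46 and 3.15 CPM in *Xist* ΔB+C (−1.58 ± 0.19, 0.00574). *Zcchc12*, which codes for a transcriptional co-activator, fell in *Xist* FL by 1.37 on the log2 scale (adjusted p 0.0440 by edgeR) and had −1.10 ± 0.26 in *Xist* ΔB+C (0.0601, and 0.00209 with the block). *Pnma5* had −1.03 ± 0.22 in *Xist* FL (adjusted p 0.0713 by edgeR, 0.00622 with the block) and −0.29 ± 0.22 in *Xist* ΔB+C, and *Pnma3* had −0.67 ± 0.36 and −0.14 ± 0.37. In *Xist* ΔA 0 of the 8 were called, with or without the block.

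Without DOX, 1 gene of the PNMA list was lower and 1 higher in *Xist* ΔA than in *Xist* FL. *Pnma5* was at 2.12 and 2.35 CPM in *Xist* ΔA, 6.36 and 9.52 CPM in *Xist* FL and 5.06 and 5.34 CPM in *Xist* ΔB+C. Its log2 (fold change) was −1.83 ± 0.23 for *Xist* ΔA against *Xist* FL (adjusted p 0.00260 by edgeR) and 1.22 ± 0.23 for *Xist* ΔB+C against *Xist* ΔA (0.0192). This X-linked Gag gene was thus low in *Xist* ΔA before induction. *Rtl8c* was also at a lower level there. It was not called by the quasi-likelihood test (adjusted p 0.106), but it was by DESeq2 (0.0463) and with the block (0.00116). *Pnma3* had −1.35 ± 0.38 and 0.89 ± 0.38 (adjusted p 0.0541 and 0.207 by edgeR, 0.00418 and 0.0451 with the block). *Pnma8b*, on chromosome 7, was the gene that was higher, by 1.46 ± 0.34 (adjusted p 0.0291 by edgeR), and it had −1.14 ± 0.33 for *Xist* ΔB+C against *Xist* ΔA (0.0763, 0.00897 with the block). Of 7 other genes of retroelement origin 6 were in the files and 3 were tested, and 1, *Arc*, whose protein forms capsid-like particles in neurons, was called, higher in *Xist* ΔA (22.1 and 22.1 CPM) than in *Xist* FL (13 and 8.29 CPM), by 1.05 ± 0.25 (adjusted p 0.0345 by edgeR), with −0.93 ± 0.25 for *Xist* ΔB+C against *Xist* ΔA (0.0635, 0.0157 with the block).

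The relatives and partners of *Zfp36l3* are autosomal. All 3 other tristetraprolin genes were tested, and with DOX 0 were called in any line by the quasi-likelihood test, while with the block 1, *Zfp36l2*, was lower in *Xist* FL as well as in *Xist* ΔB+C. *Zfp36l2* had −0.30 ± 0.21 in *Xist* FL (adjusted p 0.587 by edgeR, 0.0481 with the block) and −0.78 ± 0.21 in *Xist* ΔB+C (0.0885, 0.000349 with the block). *Zfp36l1* had 0.75 ± 0.22 and 0.76 ± 0.22 in the same lines. It was at 76.8 and 51.6 CPM in *Xist* FL noDOX and 127 and 90.0 CPM in *Xist* FL DOX (adjusted p 0.172 by edgeR). Without DOX it was higher in *Xist* ΔA (110 and 127 CPM) than in *Xist* FL, by 0.89 ± 0.22 (adjusted p 0.0382 by edgeR). *Zfp36* was called only with the block, lower in *Xist* ΔA than in *Xist* FL and higher in *Xist* ΔB+C than in *Xist* ΔA. Of 10 subunits of the CCR4-NOT complex, 0 were called with DOX in any line by the quasi-likelihood test (2, *Cnot1* and *Cnot6l*, lower in *Xist* ΔB+C with the block), and their medians lay between −0.06 and −0.01. *Cnot8*, a deadenylase subunit, was the 1 gene called between *Xist* ΔA and *Xist* FL without DOX, at −0.30 ± 0.08 (adjusted p 0.0421 by edgeR). With the block 2 were higher and 3 lower in that comparison, and 1 higher and 1 lower between *Xist* ΔB+C and *Xist* ΔA.

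Since *Zfp36l3* and several Gag genes are known from the placenta, trophoblast markers were set beside them. The summed level of 11 such markers was 109 to 111 CPM in *Xist* FL noDOX, 58.3 to 81.9 CPM in *Xist* FL DOX, 89.8 to 108 CPM in *Xist* ΔB+C noDOX and 73.7 to 80.0 CPM in *Xist* ΔB+C DOX. It was 55.1 to 65.0 CPM in *Xist* ΔA noDOX and 62.0 to 64.4 CPM in *Xist* ΔA DOX. Of the defining placental markers *Tpbpa* was at 0 in all 12 libraries, *Prl3d1* at most at 0.0244 CPM and *Elf5* at most at 0.221 CPM. Of the other markers, *Plac1* was at most at 0.653 CPM, while *Eomes* was at 14.3 to 72.1 CPM and *Tfap2c* at 6.34 to 31.1 CPM. *Cdx2* was at 2.69 to 11.7 CPM, *Ascl2* at 5.70 to 10.8 CPM and *Gata3* at 2.06 to 8.16 CPM. *Hand1* was at 0.928 to 7.21 CPM and *Krt7* at 1.33 to 6.21 CPM. Of the 7 markers tested, *Eomes*, which is also a gene of the early mesendoderm, was the 1 called with DOX, in *Xist* FL (log2 (fold change) −1.60 ± 0.30, adjusted p 0.0430 by edgeR) and *Xist* ΔB+C (−1.39 ± 0.30, 0.0451), and it was also lower in *Xist* ΔA than in *Xist* FL without DOX (−1.28 ± 0.29, 0.0291). With the block *Krt7* was also called with DOX, higher in *Xist* ΔB+C (adjusted p 0.0149 by edgeR), 2 markers were lower in *Xist* ΔA than in *Xist* FL, and 3 were higher in *Xist* ΔB+C than in *Xist* ΔA. *Zfp36l3* was at 7.20 ± 0.448 CPM in *Xist* ΔA noDOX, where the marker sum was lower, and at 6.65 ± 2.31 CPM in *Xist* FL noDOX (SD, n = 2). *Eomes*, with a mean of 36.7 CPM the highest of the list, was itself lower in *Xist* ΔA than in *Xist* FL. The lower sum thus rests in part on a gene that does not mark trophoblast cells alone. The part of these cells in the levels of the members was not tested. Primitive endoderm markers summed to 21.5 to 26.0 CPM in *Xist* FL noDOX and 26.4 to 32.7 CPM in *Xist* FL DOX, and to 27.6 to 39.98 CPM (noDOX) and 42.1 to 55.5 CPM (DOX) in *Xist* ΔB+C, and 0 of 6 were called with DOX by the quasi-likelihood test (with the block 1, higher in *Xist* ΔB+C, and 1 was higher in each of *Xist* ΔA and *Xist* ΔB+C than in *Xist* FL without DOX). Fibroblast markers summed to 10.03 to 53.2 CPM across the libraries, and 0 of the 3 tested were called in any comparison by the quasi-likelihood test. Early epiblast markers summed to 1265 to 2297 CPM. Of those 5, *Fgf5* was lower with DOX in *Xist* ΔB+C (−1.49 ± 0.32, adjusted p 0.0453 by edgeR) and *Sox4* higher in *Xist* ΔA than in *Xist* FL without DOX (0.45 ± 0.12, 0.0479), and of the 8 ES cell markers 0 were called in any comparison by the same test. With the block, of the ES cell markers 1 was higher and 1 lower with DOX in *Xist* FL, 2 were higher and 1 lower with DOX in *Xist* ΔB+C, 2 were higher and 2 lower in *Xist* ΔA than in *Xist* FL, and 1 was higher and 1 lower in *Xist* ΔB+C than in *Xist* ΔA. *Sox2*, a pluripotency factor, was the marker higher with DOX in both lines, at 0.64 ± 0.36 and 0.65 ± 0.36 (adjusted p 0.00476 and 0.00322 by edgeR with the block), and *Tdgf1* the marker lower in both, at −0.44 ± 0.21 and −0.75 ± 0.21 (0.0208 and 0.00107). These estimates and SE are of the fit without the block. Its adjusted p by edgeR were 0.487 and 0.371 for *Sox2* and 0.403 and 0.0974 for *Tdgf1*. Of the early epiblast markers 1 was higher with DOX in *Xist* FL with the block, 2 were lower with DOX in *Xist* ΔB+C, 3 were higher in *Xist* ΔA than in *Xist* FL, and 2 were lower in *Xist* ΔB+C than in *Xist* ΔA, and of the fibroblast markers *Thy1* was lower in *Xist* ΔA than in *Xist* FL (0.0320).

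The genes most like the members over the 12 libraries were mostly X-linked where the member was. By Pearson's r of log2(CPM + 1), given as a description of libraries that share lines, treatments and replicate numbers, *Bhlhb9* on the X chromosome (r = 0.987) and *Pgr*, the progesterone receptor gene on chromosome 9 (0.975), were closest to the sum of the *Rtl8* genes. *Apoo* (0.986), *Usp51* (0.985) and *Tro* (0.981), all X-linked, were closest to *Zfp36l3*. *Csmd2* on chromosome 4 (0.969) and the X-linked *Hcfc1* (0.952) and *Uba1* (0.947) were closest to *Ldoc1*. The autosomal members had autosomal genes as their nearest, *Rreb1* (0.954), *Ano6* (0.954) and *Lpp* (0.947) for *Peg10* and *Plvap* (0.872), *Vsir* (0.870) and *Tedc1* (0.860) for *Rtl1*. Between members, r was 0.973 for *Rtl8a* and *Zfp36l3*, 0.972 for *Rtl8a* and *Rtl8b*, 0.756 for *Rtl8a* and *Rtl8c*, 0.387 for *Rtl8c* and *Ldoc1*, and −0.277 for *Peg10* and *Rtl1*. For the X-linked members these values reflect in part the low DOX levels on which they were chosen. The value for *Rtl8a* and *Rtl8b* is also uncertain because many of their reads cannot be told apart.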

How the data were processed

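Total RNA was sequenced from 12 libraries in 6 groups (3 lines, with and without DOX, 2 libraries each) as paired 150-base reads. The authors aligned the reads to mm10 with TopHat2 2.1.0, keeping 1 position a read, and counted fragments per gene with featureCounts 1.5.1, and they deposited raw counts per gene. The strand setting and any removal of duplicates are not given in the sources used here. Libraries were grouped by their GEO labels.

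From the counts, edgeR 4.0.16 in R 4.3.3 fitted 6 group means to all 12 libraries (quasi-likelihood test, robust, TMM factors from autosomal genes) over the 13191 genes that reached 1 CPM in 6 or more libraries, and p-values were adjusted over all of them by Benjamini-Hochberg, with calls at an adjusted p under 0.05. CPM were scaled with the same factors. Same-numbered libraries deviated together (15 correlations between groups, 0.4045 to 0.8384), so the numbers pair the libraries, which is taken from the data. The fit with the number as a block is given beside members whose call it changed, and for lists as counts. Log2 (fold changes) and SE are those of the fit without the block, also where an adjusted p with the block stands beside them. Alternatives (DESeq2 1.42.0, filters, scaling, summed *Rtl8* counts, each library left out) were also run, and the fits were tested on simulated data. Named genes were the members, called or defining genes of the lists, tested neighbours and the 3 genes most correlated with a member, of which 1 is not reported here. *Fgf5*, *Ppp1r9a*, *Dlk1*, *Dio3*, *Zfp36l2*, *Zfp36*, *Cnot1*, *Cnot6l*, *Krt7*, *Sox2*, *Tdgf1* and *Thy1* were named after their values were seen, since few genes stood behind those counts. The other trophoblast markers were also named later, to give the range of each. The members and lists were chosen with earlier results of these data known.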

Additional observations from a re-analysis of the deposited data

How the results depend on the processing

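Of 20 alternatives to the fit none turned the direction of a called value. The number of members called between *Xist* ΔA and *Xist* FL without DOX was 0 by the quasi-likelihood test, 1 with DESeq2 and 2 with the replicate block, and between *Xist* ΔB+C and *Xist* ΔA it was 0, and 1 with the replicate block, and the block changed no other call of a member in the 4 comparisons tested. With 1 library left out, 0 members were called in each of these 4. The median log2 (fold change) of the X-linked members with DOX lay, with 1 library left out, between −2.28 and −1.49 for the *Xist* FL line, between −0.33 and −0.0797 for *Xist* ΔA and between −1.89 and −1.23 for *Xist* ΔB+C, and was −1.49 in *Xist* ΔB+C with the *Rtl8* counts added into 1 row.

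Counts of called genes depended on the tool. The quasi-likelihood test, DESeq2 and the block called 1299, 2158 and 4409 genes between *Xist* ΔA and *Xist* FL, 3, 65 and 130 between *Xist* ΔB+C and *Xist* FL, and 882, 1626 and 3702 between *Xist* ΔB+C and *Xist* ΔA. With DOX they called 164, 555 and 1845 genes for *Xist* FL, 393, 1092 and 2878 genes for *Xist* ΔB+C, but 1, 4 and 3 genes for *Xist* ΔA. The cause of these differences was not tested. *Peg10* without DOX was at 1.18 for *Xist* ΔA against *Xist* FL and 1.06 for *Xist* ΔB+C against *Xist* FL without the *Xist* FL noDOX replicate 1 library, and at −0.46 and −0.72 for *Xist* ΔB+C against *Xist* FL and *Xist* ΔA without the *Xist* ΔB+C noDOX replicate 1 library. These *Peg10* values include the difference between replicates, since the same-numbered library of the other line was kept. A filter of 5 CPM leaves out *Rtl8c*, *Ldoc1* and *Rtl1*, so these have no value under it.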
